A study of Gasterosteus aculeatus with 17 samples.

Results

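Gill gene expression was compared between 2 groups of wild three-spined sticklebacks (Gasterosteus aculeatus) that had each spent 4 days in the water of the other population: 4 freshwater fish held in marine water and 5 marine fish held in fresh water. These 9 fish, of 17 in the series, were chosen by their labels alone. The freshwater fish came from a lake and the marine fish from a sea coast, and all were wild males in breeding dress, with no ages given. Each library was made from polyadenylated gill RNA of 1 fish. The remaining 8 fish were held in captivity in their own water, 4 marine fish in marine water and 4 freshwater fish in fresh water, and served here as the reference for the same populations with the waters the other way round. Below, moved freshwater fish are freshwater fish in marine water and moved marine fish are marine fish in fresh water.

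The gill is the surface across which a fish exchanges salt and water with its surroundings. In fresh water the gill takes up ions from a dilute medium, and in sea water it secretes the salt that the body gains. Both tasks are carried out by ionocytes, mitochondria-rich cells of the gill epithelium, which are remodelled within days when salinity changes. Three-spined sticklebacks are known for marine ancestors that settled lakes and rivers many times, so that marine and freshwater populations differ by inheritance as well as by the water they live in. Because every fish in this comparison had been transferred, being moved is common to the groups. Population and water were exchanged together, so the effects of origin and of present water cannot be told apart within the comparison of moved fish alone.

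Total counts were 23736661 to 27949237 per moved freshwater fish and 6932688 to 16108405 per moved marine fish, so depth differed with the groups and did not overlap (exact permutation test, p = 0.0079, the smallest this design allows). The low-count filter left 18238 genes for testing out of 22456 in the table. Moved marine fish 2, the shallowest library, stood apart: its 10 most abundant genes took 19.4% of its counts, against 13.0% to 14.3% in the other moved marine fish. In fish 2 these genes include ENSGACG00000011986, described below. The gene IDs are not paired with names in the files, none of them matched the reference gene table, and the labelled tissue could therefore not be checked against markers. Genes are given by ID, at most 2 higher and 2 lower per comparison, with no function assigned.

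The moved groups differed for 3092 genes, 17% of those tested (edgeR quasi-likelihood test with all 17 fish, Benjamini-Hochberg adjusted p below 0.05). Of these, 1621 genes (8.89%) were higher and 1471 (8.07%) lower in moved freshwater fish than in moved marine fish. Most differences were moderate, with 63.4% of the called genes less than 2-fold apart, and the median log2 difference was 0.75 among the higher and -0.96 among the lower genes. The values of the moved groups did not overlap for 2177 of the called genes, 70.4%, against 15.9% of all tested genes, though the same fish gave the calls. In whole gill tissue, fewer cells of a type and less RNA per cell cannot be told apart for any of these genes. The share of genes called grew with abundance: it was 6.90% among genes averaging under 1 CPM (counts scaled to library size), 13.1% from 1 to 10 CPM, 20.7% from 10 to 100 CPM and 22.8% above 100 CPM.

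The number of called genes fell when any 1 of the moved freshwater fish was left out. It was 1878, 1892, 2131 and 1756 without moved freshwater fish 1, 2, 3 or 4. Without any 1 of the moved marine fish it was 2472 to 3162. Leaving out a fish also makes its group smaller, and the moved freshwater fish were the smaller group. Whether fewer fish or the particular fish mattered was not tested. The higher genes numbered 1013 without moved freshwater fish 4, and the lower genes 786, 765, 931 and 743 without moved freshwater fish 1, 2, 3 or 4. At equal depth, with every library thinned to 6932688 counts, 2603 genes were called. The split between higher and lower genes was not stable: 52.4% of the called genes were higher here, and 42.3% to 76.6% over 30 alternatives. The highest share came with library totals alone, which moved the median log2 difference of all genes by 0.16, and DESeq2 size factors gave 46.5%. With the scaling kept, the share was 42.3% without moved marine fish 1 and 45.0% without moved marine fish 4. It was 58.1, 59.6, 56.3 and 57.7% without moved freshwater fish 1, 2, 3 or 4, and 59.1% with no low-count filter. Neither direction is therefore called the more frequent. No gene called here was called in the opposite direction under any of 30 alternatives.

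Among genes whose groups did not overlap and whose higher group averaged 5 CPM or more, the 2 with the greatest rise in moved freshwater fish over moved marine fish were high in freshwater fish in either water. ENSGACG00000002336 was at 23.7, 9.43, 47.3 and 7.40 CPM in moved freshwater fish 1 to 4. In moved marine fish 1 to 5 it was at 0.221, 1.82, 0.515, 0.361 and 0.661 CPM. The groups did not overlap, and the fitted log2 difference was 5.06 (SE 0.67, edgeR adjusted p = 0.00027), or 33.5-fold. Kept freshwater fish (8.72 to 35.3 CPM) and kept marine fish (0.489 to 0.975 CPM) lay within the ranges of the moved fish of their own population.

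ENSGACG00000020323 was at 113, 60.9, 268 and 70.3 CPM in moved freshwater fish 1 to 4. It was at 0.662, 4.39, 7.46, 4.78 and 1.98 CPM in moved marine fish 1 to 5, a difference of 5.01 log2 units (SE 0.63, edgeR adjusted p = 0.00020), again with no overlap. In the kept fish it was at 46.1 to 239 CPM in freshwater fish and 1.45 to 2.94 CPM in marine fish. Both genes were highest in moved freshwater fish 3 among the moved fish and in kept freshwater fish 4 among the kept fish.

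Under the same rule, the 2 genes lowest in moved freshwater fish relative to moved marine fish were distributed differently. ENSGACG00000011986 was abundant in every marine fish, and moved marine fish 1 to 5 had 3537, 66745, 9198, 11199 and 19187 CPM. In moved freshwater fish 1 to 4 it was at 203, 159, 183 and 201 CPM, a difference of -6.88 log2 units (SE 0.76, edgeR adjusted p = 0.000079). Kept marine fish had 3558 to 6029 CPM and kept freshwater fish 62.7 to 181 CPM, so the marine fish were above the freshwater fish in either water. Moved marine fish 2 had the highest value, and without that fish the difference was -5.85 log2 units.

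ENSGACG00000022875 was high in some of the moved marine fish: it was at 65.8, 19.5 and 33.1 CPM in moved marine fish 1, 2 and 5, but at 0.257 and 0.811 CPM in fish 3 and 4. The moved freshwater fish had 0.0806 to 0.141 CPM, just below the lowest moved marine fish. The fitted log2 difference was -7.63 (SE 1.30, edgeR adjusted p = 0.0014), but it missed the threshold with limma voom (adjusted p = 0.13). Kept fish of either population had 1.41 CPM or less, and their difference was not past the threshold (log2 difference -1.59, edgeR adjusted p = 0.40).

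**Figure D1:**
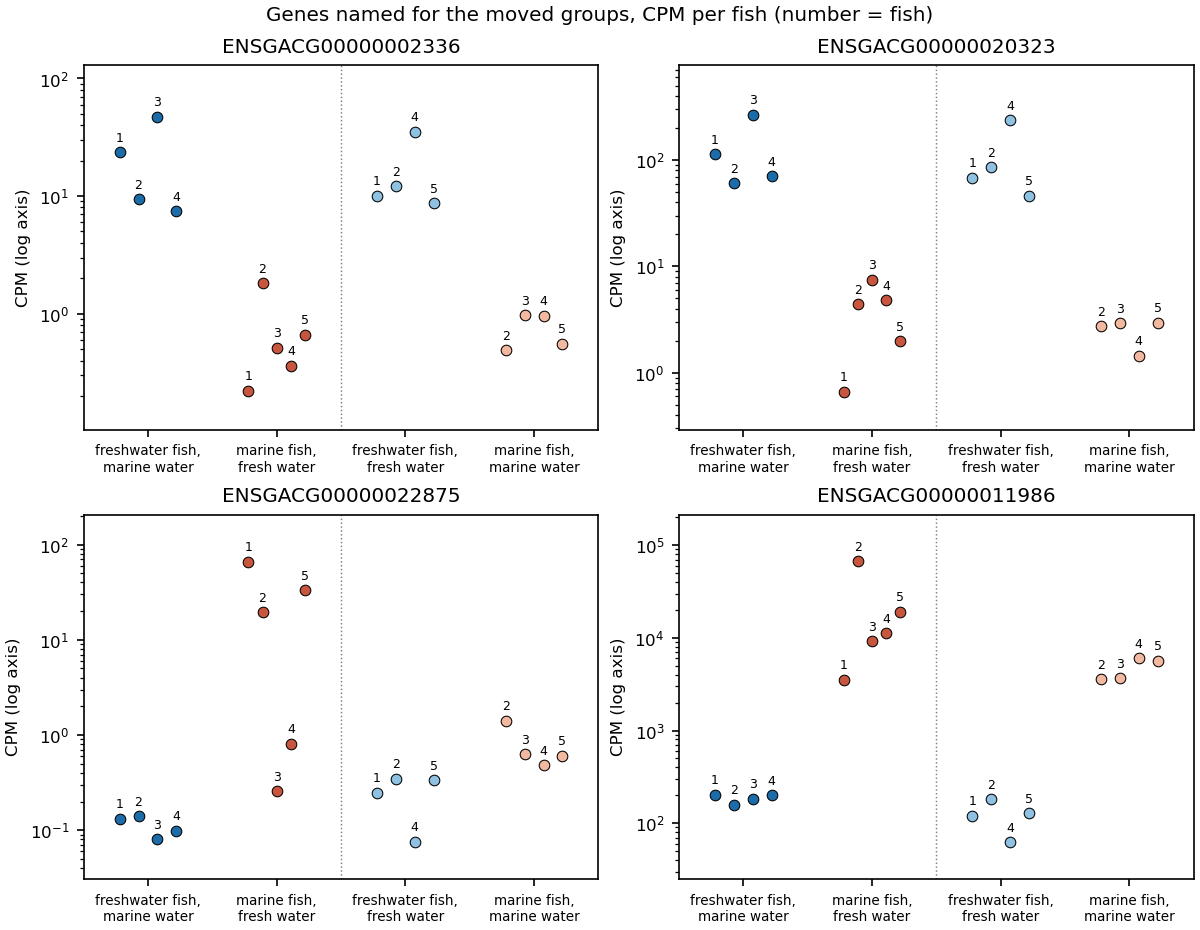
CPM on a log axis for each of the 17 fish (points, numbered by fish) in the 4 genes named for the moved groups, which stand left of the dotted line with the kept groups to the right. ENSGACG00000002336, ENSGACG00000020323 and ENSGACG00000011986 separate freshwater from marine fish in either water, whereas ENSGACG00000022875 is high in moved marine fish 1, 2 and 5 only.

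Large differences lay mostly on the side of the moved marine fish. Among called genes, 296 (1.62% of those tested) were more than 4-fold lower in moved freshwater fish and 72 (0.395%) more than 4-fold higher. Lower genes outnumbered higher ones in each of 30 alternatives, by 1.62 to 5.54 times. In kept fish the surplus was on the other side, with 220 genes more than 4-fold higher and 103 more than 4-fold lower in freshwater fish, and this order also held in each of 30 alternatives. In both comparisons the group held in fresh water had more genes over 4-fold higher.

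The 72 higher genes were also high, at the median, in freshwater fish that had stayed in fresh water. Their median log2 level above the moved marine mean ran from 1.91 in fish 1 to 2.80 in fish 3 among the moved freshwater fish and was 1.36 to 1.90 in kept freshwater fish. Kept marine fish were at -0.06 to 0.15 and moved marine fish at -0.36 to 0.11. Of the 72 genes, 51 had no overlap between the moved groups (15.9% of all tested genes), 44 were also called higher in kept freshwater fish (9.82% of all tested genes), and 30 separated all freshwater from all marine fish (4.08% of all tested genes). The counts of 51 and 30 use the moved fish that chose the genes.

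The 296 lower genes were unevenly high among the moved marine fish. Measured from the moved freshwater mean, the median log2 level was 3.49 in moved marine fish 2, followed by 2.23 in fish 5. It was lower in fish 4 (1.27), fish 1 (1.12) and fish 3 (0.46). Fish 2 had the highest value of the 5 for 187 of the 296 genes. Kept marine fish were at 0.13 to 0.89 and kept freshwater fish at -0.21 to 0.02. No overlap between the moved groups was found for 126 of the 296 genes (42.6%), against 70.4% of all called genes and 15.9% of all tested genes. Of the 296, 43 were also called lower in kept freshwater fish (7.72% of all tested genes), and 31 separated the populations in either water (4.08% of all tested genes). Among all 1471 lower genes the shares were larger, with 485 also called lower in kept freshwater fish and 217 separating the populations. The counts of 126 and 31 use the moved fish that chose the genes. Without moved marine fish 2 there were 166 genes more than 4-fold lower, and 192, 195 and 194 without moved freshwater fish 2, 3 or 4.

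**Figure D2:**
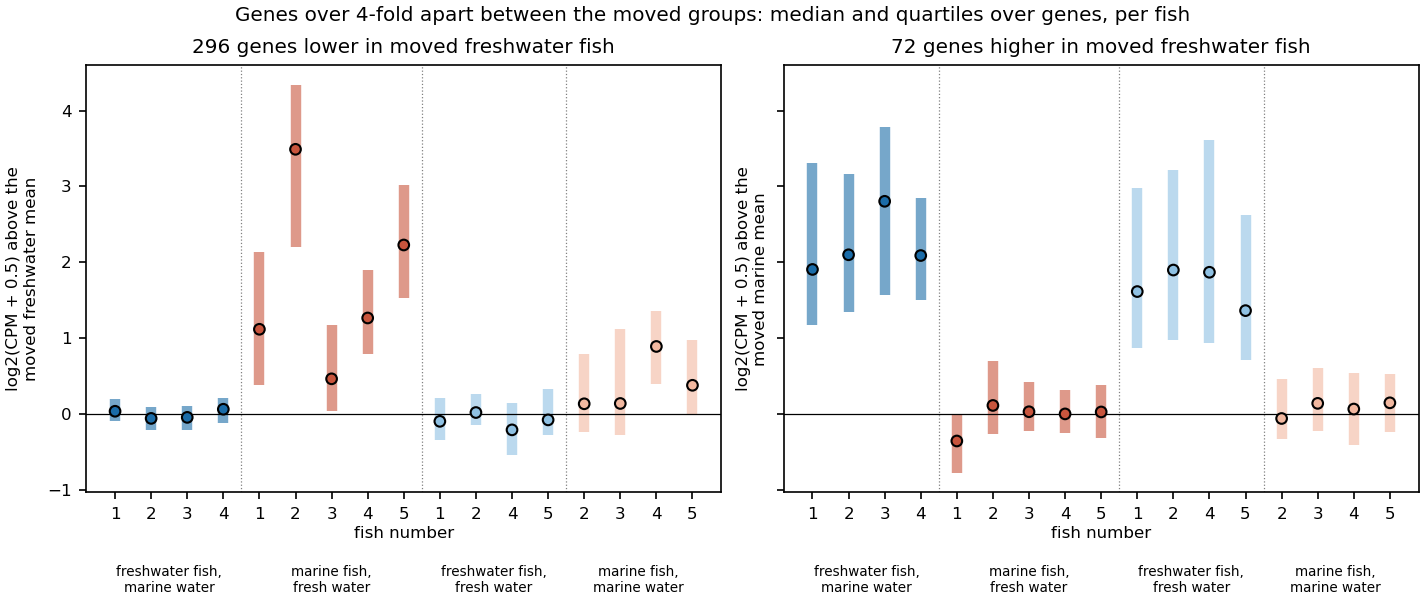
Median (points) and quartiles (bars) over genes of log2(CPM + 0.5) relative to the mean of the lower moved group, for each fish, in the 296 genes more than 4-fold lower (left) and the 72 genes more than 4-fold higher (right) in moved freshwater fish. The groups were used to choose the genes. The left panel shows the uneven moved marine fish, from 0.46 in fish 3 to 3.49 in fish 2, and the right panel shows kept and moved freshwater fish high together.

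How much of the difference between moved fish was also present between the kept fish was asked next, since the kept fish hold the same populations with the waters reversed and share no fish with the moved groups. Kept freshwater and kept marine fish differed for 3199 genes (17.5% of those tested), of which 1791 (9.82%) were higher and 1408 (7.72%) lower in freshwater fish. Called in moved and in kept fish were 1132 genes in the same direction, 36.6% of the moved list and 35.4% of the kept list: 647 were higher in freshwater fish and 485 lower. In the opposite direction were 69 genes, 2.23% and 2.16% of the lists. No fish is in both lists, although a single fit gave every gene its spread for both.

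Of the 3092 genes called in moved fish, 86.0% had the same sign in kept fish, against 69.1% of all tested genes. Across all 18238 tested genes the log2 differences of moved and kept fish had a Pearson correlation of 0.49 and a Spearman correlation of 0.51, a description across genes, which are not independent replicates. Among the 1132 shared genes the differences were of similar size, with a median of 0.82 log2 units in moved and 0.84 in kept fish. These genes were chosen for passing the same threshold in the same direction in both, which favours similar sizes. Of them, 39 were more than 4-fold higher and 38 more than 4-fold lower in freshwater fish in both. For 745 genes (4.08% of those tested) the 8 freshwater fish did not overlap with the 9 marine fish in any water, 501 being higher and 244 lower in freshwater fish.

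The kept count was 1945 and 1895 without kept freshwater fish 2 or 4, and 2027, 2073 and 2077 without kept marine fish 2, 3 or 4. It rose to 4525 with limma voom, where 3067 genes were called in moved fish. Without moved marine fish 1 and 2 it was 3976, against 1983 in moved fish. DESeq2 gave 4272 in kept and 4258 in moved fish. The similar length of the 2 lists thus did not hold in every alternative. The 1132 shared genes fell to 745 and 739 without kept freshwater fish 2 or 4 and to 746 without moved freshwater fish 4.

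**Figure D3:**
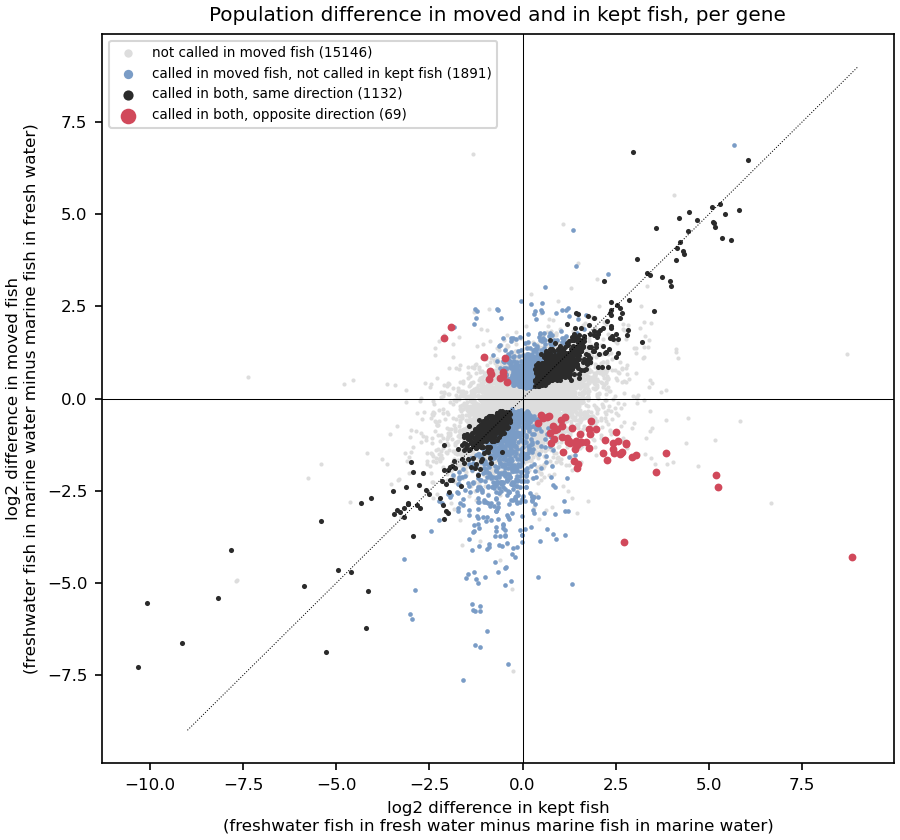
Each point is 1 of the 18238 tested genes, with the log2 difference between kept groups on the horizontal axis and between moved groups on the vertical axis, both as freshwater fish minus marine fish. Genes called in both with the same direction (1132) follow the dotted line of equality, which that choice of genes favours. The 69 genes called with opposite directions lie mostly in the lower right, higher in kept but lower in moved freshwater fish.

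Genes chosen on the kept fish alone were then followed in the moved fish. In a fit of the 8 kept fish alone, 2874 genes were called, 1569 higher in freshwater and 1305 higher in marine fish. In the moved fish 80.5% of these genes had the same sign, against 69.1% of all tested genes in the fit of all fish. Called with that sign were 988 (34.4%), and 81 were called with the other sign. Of all tested genes, 8.89% were called higher and 8.07% lower in moved freshwater fish. To show where each moved fish lay, the level of each gene was set on a scale with the kept marine mean at 0 and the kept freshwater mean at 1, and the median over genes was taken. Moved freshwater fish 1 to 4 were at 0.92, 0.91, 0.81 and 0.91. Over all these genes they lay within the range of the kept freshwater fish, 0.807 to 1.15, with fish 3 (0.808) just above its low end. Kept freshwater fish 5 alone set the low end of that range. Kept freshwater fish 1, 2 and 4 were at 0.96, 1.07 and 1.15, above every moved freshwater fish. Moved marine fish 1 to 5 were at 0.34, 0.48, 0.45, 0.37 and 0.27, above the range of the kept marine fish, -0.11 to 0.22. Past the midpoint toward the other population lay 18.6 to 23.4% of these genes in moved freshwater fish, against 1.57 to 9.88% in kept freshwater fish. In moved marine fish the share was 29.0 to 48.5%, above every kept marine fish.

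No moved marine fish was as close to the kept marine mean as any moved freshwater fish was to the kept freshwater mean. The same held at equal depth, with moved freshwater fish at 0.81 to 0.92 and moved marine fish at 0.27 to 0.49. Choosing genes for a large difference between the kept groups places any other fish toward the middle of this scale, and the size of that pull was not tested. For genes higher in kept marine fish, the moved freshwater fish were at 0.84 to 1.00 and the moved marine fish at 0.32 to 0.66, the highest being fish 2. For genes higher in kept freshwater fish, the values were 0.78 to 0.86 and 0.21 to 0.44. Kept freshwater fish were at 0.851 to 1.117 for those genes. Moved freshwater fish 2, 3 and 4 (0.847, 0.783 and 0.846) lay below every kept freshwater fish there. The kept fish were themselves spread. Over all the genes, kept freshwater fish 5 was at 0.807, below every moved freshwater fish. Kept marine fish 5 was at 0.22, above the other kept marine fish (-0.11 to -0.05).

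**Figure D4:**
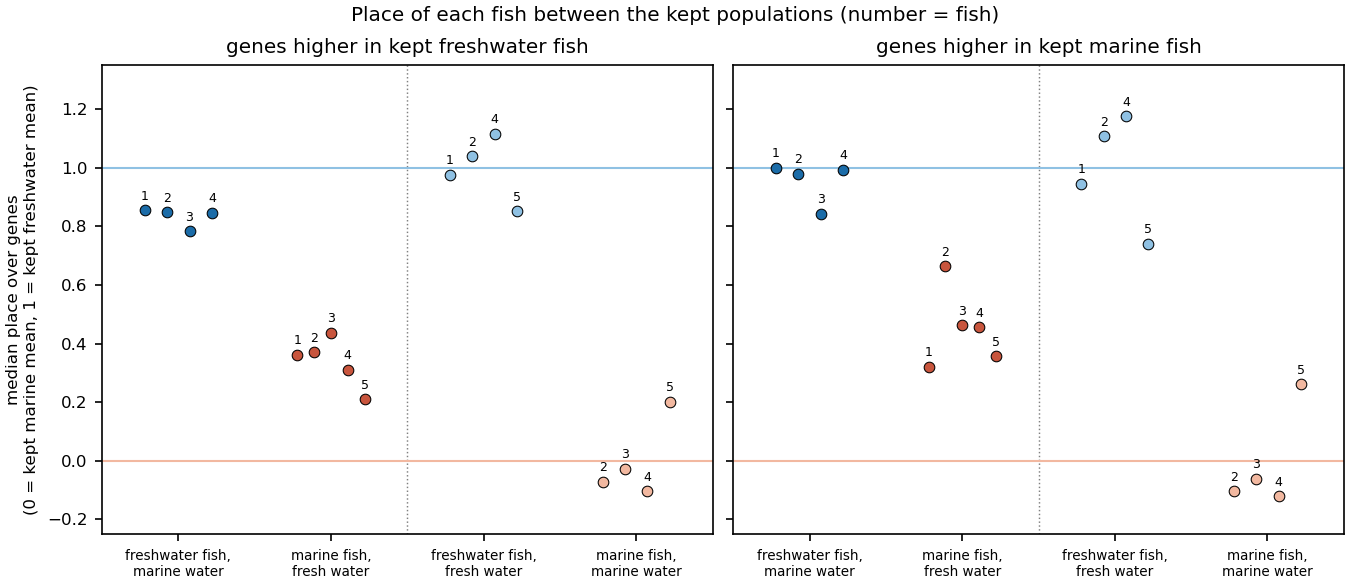
Place of each fish (points, numbered by fish) on a scale from the kept marine mean (0) to the kept freshwater mean (1), as the median over 1569 genes higher in kept freshwater fish (left) and 1305 genes higher in kept marine fish (right). Kept fish define the scale. Moved freshwater fish stay at 0.78 or above in both panels, while moved marine fish lie between 0.21 and 0.66.

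The 4 genes named for the kept groups by the same rule showed how such genes stood in the moved fish. For ENSGACG00000019485 the moved marine fish 1 to 5 had 398, 240, 286, 125 and 4.18 CPM, and the moved freshwater fish had 1.97 to 7.90 CPM. Moved marine fish 5 lay within the range of the moved freshwater fish. Kept marine fish 5 was also low, at 4.16 CPM against 497 to 1604 CPM in the other kept marine fish, but above the kept freshwater fish, at 1.33 to 3.79 CPM. The difference between the moved groups was -5.42 log2 units (SE 1.25, edgeR adjusted p = 0.0091).

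ENSGACG00000008840 had 0 counts in every kept freshwater fish, which allows up to 0.0291 CPM over the group at a floor of 3 counts, and 9 counts in all over the moved freshwater fish. It was at 1.98 to 6.05 CPM in the moved marine fish (log2 difference -5.54, SE 1.13, edgeR adjusted p = 0.0064). In kept marine fish it was at 0.0612, 10.1, 14.3 and 2.48 CPM, a mean at least 232-fold higher than that floor. This gene was thus at or near 0 in all freshwater fish and also in kept marine fish 2.

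ENSGACG00000019813 was at 10.1 to 248 CPM in moved freshwater fish 2, 3 and 4 but at 0.164 CPM in moved freshwater fish 1, below every moved marine fish (0.772 to 6.52 CPM). Its difference between moved groups was 5.12 log2 units (SE 1.16, edgeR adjusted p = 0.0085). ENSGACG00000018949 lost its difference: kept freshwater fish had 1451 to 4535 CPM and kept marine fish 13.6 to 143 CPM, but moved freshwater fish had 124 to 392 CPM and moved marine fish 34.0 to 803 CPM. The moved groups overlapped for this gene (log2 difference -0.62, SE 0.78, edgeR adjusted p = 0.62).

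Whether the population difference was the same in moved and in kept fish was tested gene by gene. This test also equals the difference of marine against fresh water added over both populations. Within each population, water goes with having been moved, so a response to transfer that differs between the populations enters as well. The 2 cannot be told apart. The test called 324 genes, 1.78% of those tested. Of these, 90 (0.493%) were larger and 234 (1.28%) smaller in moved fish when taken as freshwater minus marine fish. Large values were on the smaller side, with 122 genes below and 19 genes above by more than 4-fold. Of the 1891 genes called in moved but not in kept fish, 79 passed this test, and for the others the absence of a call in kept fish does not show that the groups differed less there. Of the 1998 genes called in kept but not in moved fish, 176 passed, 142 of them higher in kept freshwater fish, ENSGACG00000018949 among these (-6.46 log2 units, SE 1.24, edgeR adjusted p = 0.011). None of the 1132 genes shared by the lists passed, and calls in the same direction in both make a pass less likely.

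The count of 324 was 176 and 202 without kept freshwater fish 1 or 4, 213 and 188 without moved freshwater fish 3 or 4, 191 and 206 without kept marine fish 2 or 3, and 508 without moved marine fish 5. All 69 genes that were called with opposite directions passed the test. Opposite calls nearly ensure a pass, since the test subtracts the kept from the moved difference. Of the 69, 58 were lower in moved but higher in kept freshwater fish, with median differences of -1.19 and 1.54 log2 units. These 58 were so higher in whichever group was held in fresh water. The other 11 were higher in moved but lower in kept freshwater fish, with medians of 0.73 and -0.84. The 69 genes became 43, 44 and 35 without moved freshwater fish 1, 2 or 4.

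For 18 genes, 0.0987% of those tested, the 8 fish in marine water did not overlap with the 9 fish in fresh water, 14 being higher in fresh water and 4 in marine water. ENSGACG00000016386 was at 1.87, 2.82, 2.46 and 2.47 CPM in moved freshwater fish 1 to 4. Moved marine fish 1 to 5 stood at 9.71, 10.2, 8.30, 7.03 and 3.19 CPM, and the fitted log2 change was -1.67 (SE 0.28, edgeR adjusted p = 0.0012). In kept fish the order turned, with 10.6 to 15.0 CPM in freshwater and 1.83 to 3.11 CPM in marine fish, and the moved difference minus the kept difference was -3.93 log2 units (SE 0.40, edgeR adjusted p = 0.00012).

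ENSGACG00000011458 had the same order, at 9.60 to 11.4 CPM in moved freshwater fish and 15.0 to 53.9 CPM in moved marine fish. Its difference was -1.38 log2 units in moved fish (SE 0.38, edgeR adjusted p = 0.021) and 2.43 in kept fish (SE 0.40, edgeR adjusted p = 0.0011). Of the genes higher in marine water, ENSGACG00000009520 was at 122, 109, 132 and 118 CPM in moved freshwater fish 1 to 4. Moved marine fish 1 to 5 had 49.0, 40.6, 71.9, 56.2 and 62.5 CPM, all below the moved freshwater fish (fitted log2 change 1.10, SE 0.14, edgeR adjusted p = 0.00020). In kept fish this gene was lower in freshwater fish, at 60.8 to 73.2 CPM against 84.0 to 101 CPM. ENSGACG00000008663 was at 40.4 to 44.5 CPM in moved freshwater fish and 13.6 to 31.9 CPM in moved marine fish (log2 difference 0.72, SE 0.19, edgeR adjusted p = 0.018). Its change between moved and kept fish, 1.27 log2 units (SE 0.28, edgeR adjusted p = 0.025), missed the threshold without kept freshwater fish 1 or 4, kept marine fish 3 or moved freshwater fish 4 (adjusted p = 0.050 to 0.065).

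The moved groups also differed in how their counts were spread over genes. The 100 most abundant genes of each fish took 29.3, 30.0, 29.0 and 28.7% of the counts in moved freshwater fish 1 to 4. They took 33.0, 35.2, 32.7, 35.6 and 32.5% in moved marine fish 1 to 5, a difference of -4.53 percentage points with no overlap (two-sided exact permutation test, p = 0.0079, adjusted p = 0.019 over 7 library measures). The kept groups, at 30.9 to 32.2% and 30.7 to 33.8%, overlapped (difference -0.59 points, exact p = 0.57, adjusted p = 0.88), and the moved freshwater fish lay below all other fish. The TMM scaling factors showed the same order, 1.05 to 1.11 in moved freshwater fish and 0.931 to 1.00 in moved marine fish (exact p = 0.0079, adjusted p = 0.019). At equal depth the number of genes detected was 19161 to 19379 and 18879 to 19908, which overlapped (exact p = 0.94, adjusted p = 0.97).

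Among the 100 genes with the highest mean over the groups, 23 were lower and 4 higher in moved freshwater fish, where 8.07% of all tested genes were lower and 8.89% higher. Calls were more frequent among abundant genes in general, with 207 lower and 150 higher of the 1566 genes averaging over 100 CPM. The ranking mean includes the moved fish, so a gene can enter the 100 through the group where it is high. The median log2 difference of these 100 genes was -0.12 in moved fish, against -0.02 over all genes tested. Over the 30 alternatives 18 to 27 of them were lower and 2 to 13 higher, the 13 with library totals alone and the 2 without moved freshwater fish 4. Between the kept groups 10 were higher and 6 lower in freshwater fish, an order that turned in 3 alternatives. It was 14 and 15 with limma voom, 12 and 13 without moved marine fish 1 and 2, and 10 and 14 with only the groups compared. The lower count was 3 without kept marine fish 2 or 3 or kept freshwater fish 2 or 4, and 10 without moved marine fish 1 or 2.

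**Figure D5:**
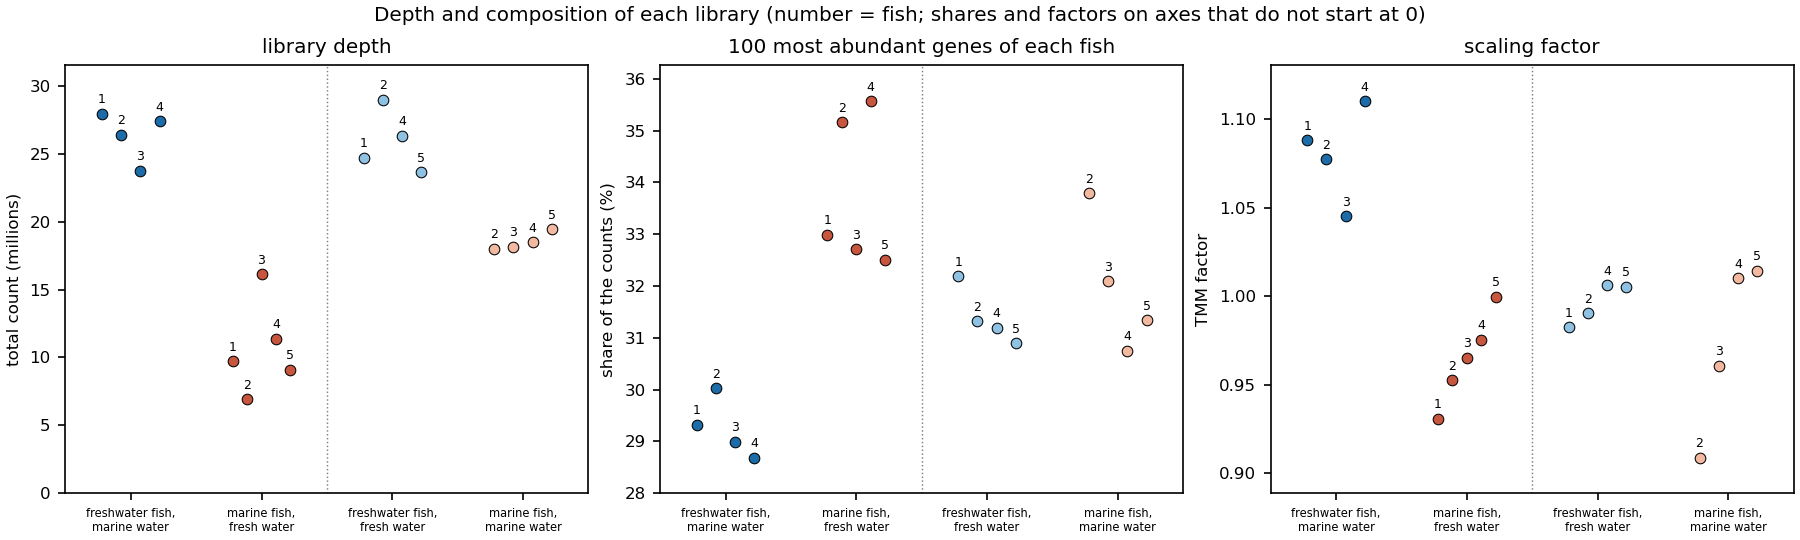
Total count (left), share of the counts in the 100 most abundant genes of each fish (middle) and TMM scaling factor (right), with 1 point per fish, numbered. Moved freshwater fish are deepest among the moved fish and lie below all other fish in the share, at 28.7 to 30.0%, and above all other fish in the scaling factor, at 1.05 to 1.11.

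Moved freshwater fish resembled each other more than moved marine fish did. Over the 12795 genes averaging at least 5 CPM, at equal depth, the root mean square log2 distance between fish was 0.393 to 0.497 within moved freshwater fish (6 pairs) and 0.504 to 0.970 within moved marine fish (10 pairs). Between the moved groups it was 0.651 to 0.988 with a median of 0.740 (20 pairs), and between the kept groups 0.632 to 0.977 with a median of 0.767 (16 pairs). Over all tested genes at full depth, the biological coefficient of variation was 22.8% in moved freshwater fish and 39.4% in moved marine fish. In moved marine fish it was 34.8% without fish 2 and 32.2% without fish 1 and 2. Kept freshwater fish had 27.8% and kept marine fish 29.9%. At equal depth the moved groups had 20.8% and 38.6%. Moved marine fish 3 was on average as far from the other moved marine fish (0.672) as from the moved freshwater fish (0.674). The fish nearest to moved marine fish 5 was kept marine fish 5, whereas each of the other 8 moved fish had its nearest neighbour in its own group.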

How the data were processed

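The authors deposited whole-number read counts per gene, not normalized, for 17 gill libraries, 1 per fish. The submitters' processing notes name CASAVA 1.8.2 and TopHat2 2.1.0. Counting tool, strand setting, genome build and annotation: not given in the sources used here. Groups were taken from the labels. Genes were kept with filterByExpr (minimum count 10), scaled by TMM and fitted for all 4 groups with edgeR 4.0.16 (glmQLFit, glmQLFTest, no covariates), adjusted by Benjamini-Hochberg at 0.05. Each standard error is the size of the log2 difference over the root of F. CPM use TMM-scaled totals, and levels per fish use log2(CPM + 0.5). The fitting code was tested on simulated data with known changes. Alternatives used DESeq2 1.42.0 and limma 3.58.1 under R 4.3.3.

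Named genes had an adjusted p below 0.05, a mean of 5 CPM or more where they were higher and no overlap, and were the 2 largest in each direction of each of 3 contrasts; for the contrast of moved and kept differences, no overlap means that waters separate. The comparisons and lists were chosen with earlier results of these data known. None of the 22456 IDs matched the reference gene table (assembly fGasAcu3.hap1.1), so the 8 gene lists and the cell type markers could not be used. Among 17449 genes with over 200 counts, 4873 (27.9%) hold only multiples of a common whole number of 2 or more, including ENSGACG00000018949, ENSGACG00000019485 and ENSGACG00000011458. Its origin is not given, and the counting error behind such values may be larger than their size implies. Replicates are separate wild fish, and pairs within the moved groups had chi-square values of 35.9 to 150.5 times their degrees of freedom. The floor of 3 counts covers counting error only. How reads from near-identical or overlapping genes were counted is likewise unknown here.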

Additional observations from a re-analysis of the deposited data

Results flagged for a closer look

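Each set of values was 1 measure in 1 moved group. In 5 of 44 sets a single fish lay far from the others relative to the range of its group. Independent, normally spread values would give about 1 in 20 sets, or 2.2 here. The sets share fish and include unlogged CPM, so 2.2 need not be their chance rate. Moved marine fish 2 accounted for 3 of the 5 sets. Its 10 most abundant genes took 19.4% of its counts (the next fish had 14.3%). In this fish ENSGACG00000011986, 1 of those 10 genes, was at 66745 CPM (next 19187 CPM), so these 2 sets overlap. ENSGACG00000002336 was at 1.82 CPM in moved marine fish 2 (next 0.661 CPM). Moved freshwater fish 3 was at 0.81 on the scale between the kept populations, with the next fish at 0.91. Moved marine fish 1 had a median of -0.36 log2 units in the 72 genes more than 4-fold higher in moved freshwater fish, with the next moved marine fish at 0.00.

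The population difference of moved fish departed from that of kept fish for 324 genes in edgeR's test of the difference. Among the named genes this was so for ENSGACG00000018949 (-6.46 log2 units), ENSGACG00000016386 (-3.93), ENSGACG00000011458 (-3.81), ENSGACG00000009520 (1.56) and ENSGACG00000008663 (1.27). The last 4 were chosen by this contrast.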

How the results depend on the processing

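Fish numbers recur across groups for separate animals. Same-numbered fish of the 2 moved groups did not deviate together (correlations -0.095 to 0.046, and 0 of 4 matched best with its own number). Pairing of moved with kept fish by number was not tested. With the fish number as a block, 2014 genes were called in moved fish (818 lower, 143 more than 4-fold lower), 2063 in kept fish, 717 in both with the same direction and 168 in the difference between them. With only the groups compared in the fit, 2038 genes were called in moved fish (920 lower, 155 over 4-fold lower). Without moved marine fish 1 and 2 together there were 1983 (1013 higher, 970 lower, 159 over 4-fold lower). DESeq2 called 2398 lower genes and 821 in the difference, and limma voom 534 in the difference and 110 over 4-fold lower. Library totals alone, an alternative chosen after seeing the data, gave 2939 higher and 898 lower genes. A stricter low-count filter, which tests fewer genes, left 41 over 4-fold higher and 135 over 4-fold lower. Leaving out 1 fish gave 1756 to 3209 genes in moved fish, 1013 to 1660 higher and 743 to 1739 lower, 61 to 80 and 166 to 393 of them over 4-fold. It gave 1895 to 3716 genes in kept fish, 739 to 1236 in both and 176 to 508 in the difference. Beyond the fish left out and the genes removed by a filter, the cause of these shifts was not tested. Each alternative kept at least 55.7% of the calls in moved fish. All 12 named genes kept their direction in each alternative that tested them. Under limma voom ENSGACG00000022875 and ENSGACG00000019813 (in kept fish) missed the threshold (adjusted p = 0.13 and 0.25). Depth limits low-abundance genes most, and the deeper group is the moved freshwater fish.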

Other observations

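ENSGACG00000022875 was present in moved marine fish 1, 2 and 5 and near absent elsewhere, and other genes with this distribution were looked for after its values were seen. In 18 genes these 3 fish all had at least 5 CPM and more than 4 times the highest of the other 14 fish. The median CPM of the 18 genes was 282, 110 and 145 in moved marine fish 1, 2 and 5. It was 6.34 and 10.9 in moved marine fish 3 and 4, 1.95 to 2.50 in moved freshwater fish, 2.58 to 4.22 in kept freshwater fish and 6.08 to 11.5 in kept marine fish. All 18 are among the 296 genes more than 4-fold lower in moved freshwater fish, with log2 differences of -7.63 to -2.65. The moved groups did not overlap for 16 of them (15.9% of all tested genes). None was called between the kept groups in edgeR's test (17.5% of all tested genes). The choice gives these genes a wide spread, which the fit of all 17 fish also uses for the kept groups. The absence of kept calls therefore does not show that the kept groups were alike. The test of moved against kept differences was passed by 5 (1.78% of all tested genes). Because the genes were chosen for this pattern, the values are a description.

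Of the called genes, 9 averaged at least 5 CPM in moved marine fish and less than 0.5 CPM in moved freshwater fish, and 2 showed the reverse. All 9 also averaged less than 0.5 CPM in kept freshwater fish, and 2 of the 9 in kept marine fish. At least 5 CPM was reached by 8 of the 9 in moved marine fish 2 and in moved marine fish 5, but by 2 or 3 in the other moved marine fish. The 2 reverse genes averaged less than 0.5 CPM in kept marine fish but not in kept freshwater fish.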
